A study of Drosophila melanogaster with 12 samples.

Results

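Metamorphed ph505 cells are the adult survivors of tissue that grew as tumours in the larva. The homozygous ph505 cells overgrow in larval imaginal discs, pass through the pupal stage inside the fly and are found in the adult as cells that no longer form tumours. The comparison described here sets 3 RNA samples of these cells against 3 samples of wild-type eye discs, 6 of the 12 samples in the series, chosen by their labels alone. The metamorphed cells came from adults of genotype ph505 FRT19A/tub-Gal80 FRT19A on the first chromosome pair, together with +/ey-flp and the driver act>STOP>Gal4 with UAS-GFP. The ph505 allele removes the function of the neighbouring genes ph-p and ph-d. The clones were marked with GFP and made by mosaic recombination with a flippase under the eyeless enhancer. It acts in the eye-antennal, leg and genital discs, so marked cells in the adult fly can come from any of these. The study's text does not state the body part from which the sequenced cells were taken. The control discs were wild-type eye discs of late larvae of the last instar that had been placed in the abdomen of an adult w1118 female and taken out 1 day later. Flies of both groups were raised at 25 °C. Wild-type cells that had gone through metamorphosis were not among the samples, and of these groups only the control discs had been transplanted. The step from larva to adult, the loss of ph, the step from a whole disc to marked cells and the transplantation therefore cannot be told apart in any difference given here. The study cites earlier evidence that transplantation by itself alters the expression of some genes. The libraries of the metamorphed cells were read on another sequencer model than those of the control discs, which cannot be told apart from the groups either. The samples of a group were collected independently, and p-values measure the spread between these collections.

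Imaginal discs are folded epithelial sacs set aside in the fly larva. Their cells divide through larval life, are given eye, antenna, leg, wing or genital identity, and in the pupa stop dividing, secrete the adult cuticle and differentiate under pulses of the steroid hormone ecdysone. Polyhomeotic, the protein lost in ph505, is a subunit of Polycomb repressive complex 1, which keeps developmental regulators silent in cells that should not use them, the Hox genes above all.

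Values are counts-per-million (CPM) on the scale the authors deposited, given for replicates 1, 2 and 3 in that order. The metamorphed cells had 66046651, 81447816 and 71791011 reads on genes, against 2072498, 26137216 and 17426016 in control discs, so control disc sample 1 was by far the shallowest library and 3 reads, the smallest amount treated as detectable, stood for 1.18 CPM there against at most 0.143 CPM in every other sample. Of 9765 genes tested with limma on log2(CPM + 1), 4019 differed at a Benjamini-Hochberg adjusted p under 0.05, which is 41.2% of them. The 2256 genes that rose make up 23.1% of all genes tested and the 1763 that fell make up 18.1%. These shares are the background for every group of genes below, as is the median log2 fold change over all tested genes of 0.01. All 3 metamorphed samples lay above all 3 control discs for 28.3% of the tested genes and below them for 24.6%. The scaling bears on the split. Rises made up 56.1% of the calls on the deposited scale but 36.2% with CPM of total reads, which moved the median of all genes to -0.46, so changes smaller than about that size are relative to the scaling chosen. The male-specific RNAs roX1 and roX2 were high in control discs 1 and 2 and near 0 in every other sample. The genotype of the metamorphed cells holds a pair of X chromosomes, that of female flies. By these RNAs sex thus differed between the metamorphed cells and control discs 1 and 2, and its part in other results was not tested. Germ-cell genes also differed between control discs. Summed over the germline list they reached 489, 447 and 392 CPM in metamorphed cells, against 524, 2076 and 471 CPM in control discs, and their part in other results was not tested.

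The targeted genes did not fall at the RNA level. The ph-p gene (X chromosome, 2126210 to 2138371 in the BDGP6 annotation) had 223, 206 and 213 CPM in metamorphed cells, against 53.3, 84.5 and 74.4 CPM in control discs. Every metamorphed sample was above every control disc, and the log2 fold change was 1.61 ± 0.24 (SE, adjusted p = 0.000851). Its neighbour ph-d (X chromosome, 2115727 to 2123286) had 131, 142 and 90.2 CPM, against 69, 81.5 and 58.5 CPM, a log2 fold change of 0.77 (adjusted p = 0.0463) whose call was lost without any one of the control discs or of metamorphed samples 1 and 2 and under all 3 other scalings (adjusted p = 0.0828 to 0.453). The genes are near-identical copies, so reads may be shared between them. The level of an mRNA says nothing of the protein made from it, so the genotype is not checked by these values. Of the 21 tested members of the Polycomb repressive complexes, 4 rose and 6 fell. The share that rose was below the 23.1% over all genes, and the share that fell was above the 18.1% over all genes. The falling number was 12 with CPM of total reads and 2 without control disc 3. It was 3 without control disc 1 or 2 or metamorphed sample 1. No direction is therefore given for these complexes as a group. Su(z)2 and Psc, paralogous subunits of the same complex, had log2 fold changes of 3.50 and 1.69 (adjusted p = 3.78e-05 and 0.000284). Psc had 280, 237 and 242 CPM, against 75.7, 76.6 and 81.1 CPM in control discs, while Pc, the subunit that gives the family its name, did not pass the test (29.5, 48.4 and 60.5 CPM, against 37.2, 43.7 and 42.3 CPM). Sfmbt and pho, which encode partners in the DNA-binding Pho complex, fell by 3.04 and 1.75 on the log2 scale (adjusted p = 0.00308 and 0.0014).

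Hox genes give body segments their identity along the head-to-tail axis. Of 8 tested Hox genes 7 rose, with a median log2 fold change of 4.40 over the 8. With limma-voom, which weights each value by its depth, and without control disc 1, 5 rose. Their summed level was 1099, 1185 and 1038 CPM in metamorphed cells, against 45.5, 34.3 and 35.2 CPM in control discs, with neither group reaching the other. The genes came from both ends of the axis. The proboscis gene pb (chromosome 3R, 6707800 to 6742063) had 324, 328 and 392 CPM in metamorphed cells, against 8.62, 0.185 and 0.0478 CPM in control discs (log2 fold change 7.25 ± 0.76, SE, adjusted p = 0.000113). Abd-B, which specifies the most posterior segments (chromosome 3R, 16927212 to 16972236), had 372, 226 and 232 CPM, against 6.66, 0.309 and 0 CPM (6.97 ± 0.72, adjusted p = 0.000101). In both genes every metamorphed sample lay far above every control disc, and control disc 1 was the highest of the control discs. Dfd, a head gene, had 249, 448 and 251 CPM, against 11.8, 15.1 and 21.2 CPM in control discs, which express it at a low level (4.20 ± 0.33, adjusted p = 2.6e-05). Scr and abd-A rose as well, by 5.89 and 4.59 log2 units (adjusted p = 8.49e-05 and 0.000172). The member that did not pass, looked up after its values were seen, was Antp, with 0, 0 and 2.61 CPM, against 8.62, 0.865 and 0 CPM in control discs.

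**Figure D1:**
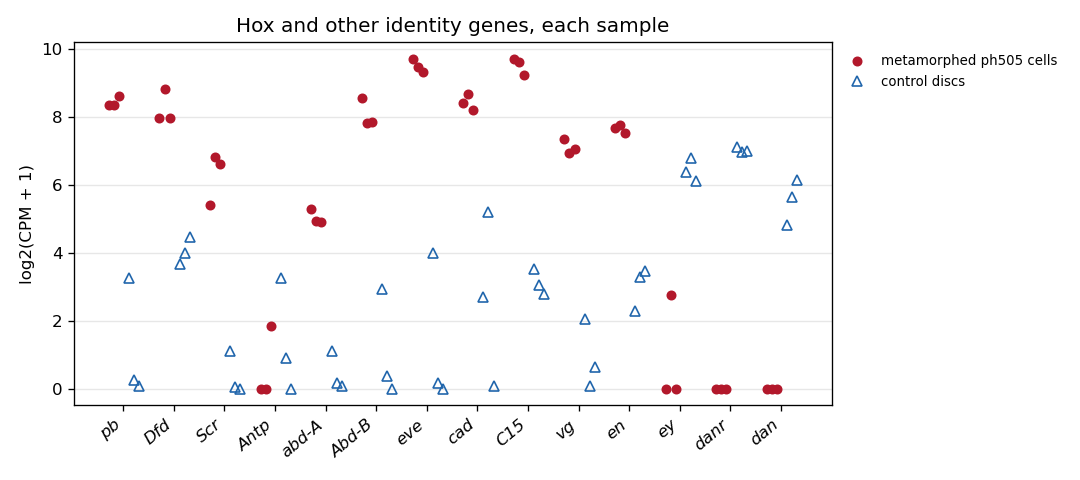
Level of Hox and other identity genes in each sample, as log2(CPM + 1) on the vertical axis, with 1 column of points per gene; filled circles are the 3 metamorphed samples and open triangles, to their right, the 3 control discs. The 3 metamorphed samples sit close together above the control discs for pb, Abd-B, eve, cad, C15, vg and en, and at or near 0, below the control discs, for danr, dan and, but for sample 2, ey, while Antp is low in both groups.

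Other identity genes split. Among 15 genes of the genital disc and of embryonic segmentation, 6 rose and 3 fell. The pair-rule gene eve, used in the early embryo and in a few later cell types, had 834, 713 and 638 CPM in metamorphed cells, against 14.9, 0.124 and 0 CPM in control discs (8.12 ± 0.91, adjusted p = 0.000159). The hindgut and anal plate gene cad had 337, 404 and 293 CPM, against 5.49, 35.9 and 0.0478 CPM (5.76 ± 1.02, adjusted p = 0.00194). The spread between control discs was wide for both, and no control disc reached a metamorphed sample. The hindgut gene byn had 20.6, 20.6 and 18.6 CPM in metamorphed cells and no read in any control disc, which makes it at least 42.3-fold higher when the control discs are set at 3 reads per library. Of 27 genes for antenna, leg and wing identity 10 rose and 9 fell. C15, a homeobox gene of the leg tip, rose by 6.39 log2 units (830, 779 and 606 CPM, against 10.6, 7.29 and 5.98 CPM). The wing selector vg and the posterior compartment genes inv and en rose by 6.18, 4.85 and 4.64 log2 units (adjusted p = 5.27e-05, 7.22e-05 and 2.65e-05). The antennal genes danr and dan, in contrast, had no read in any metamorphed sample, against 138, 124 and 127 CPM of danr and 27.1, 48.9 and 69.7 CPM of dan in control discs. These are falls of at least 2692-fold and 1006-fold against 3 reads per library. Dll, a gene of the distal limb, did not pass (24.8, 28.1 and 16.9 CPM, against 13.3, 50.6 and 12.7 CPM).

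Most genes of cell division fell. Of 52 genes of mitosis and cytokinesis 43 fell and 9 did not pass, with a median log2 fold change of -2.66. Of 41 DNA replication genes 26 fell and 15 did not pass, with a median of -2.08. Of 24 cyclins, Cdks and their regulators 14 fell, 1 rose and 9 did not pass, and their summed levels overlapped, at 2487, 3345 and 3045 CPM in metamorphed cells, against 2750, 3980 and 3823 CPM in control discs. The mitotic kinase gene polo had no read in any of the 3 metamorphed samples, against 184, 364 and 316 CPM in control discs. This is a fall of at least 5964-fold in reads, with a fitted log2 fold change of -8.12. CycB, the cyclin of mitotic entry, was likewise at 0, 0 and 0 CPM, against 57.6, 360 and 84.8 CPM, at least 3466-fold lower. The same pattern held for Incenp, a subunit of the chromosome passenger complex, for the kinesin gene Klp61F and for Cks30A, each without a read in the metamorphed samples and at 74.9 CPM or more in all control discs. The string phosphatase gene stg, which drives entry into mitosis, had 9.42, 0.028 and 0.213 CPM, against 137, 322 and 360 CPM (-6.75 ± 0.84, adjusted p = 0.000282). Sample 1 held nearly all that was left of it.

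Replication genes were low but mostly not at 0. CycE, which drives S phase, had 0.892, 3.36 and 0.0164 CPM in metamorphed cells, against 51.4, 47.4 and 56.5 CPM in control discs (fell by 4.70 on the log2 scale, adjusted p = 0.00033). The sliding clamp gene PCNA had 24.8, 10.3 and 13.2 CPM, against 127, 156 and 110 CPM (-3.02 ± 0.37, adjusted p = 0.00025). Mcm2, a subunit of the replicative helicase, had 24.4, 21.6 and 17.5 CPM, against 80, 130 and 191 CPM, and CycA, used in both phases, had 10.5, 30.1 and 19.7 CPM, against 180, 378 and 232 CPM. No metamorphed sample reached a control disc for any of these genes. None was at 0, but CycE in sample 3 lay below the 3 reads treated as detectable (0.0493 CPM there). In bulk RNA fewer cycling cells and less RNA per cell cannot be told apart. Genes that hold cells out of the cycle did not move as a group. Among 12 of them 3 rose (25.0%) and 1 fell (8.33%), against 23.1% and 18.1% over all genes. In each fit that left out a sample 2 or 3 rose and up to 2 fell. The Cdk inhibitor gene dap, the Cyclin degradation activator fzr and Rbf, the fly retinoblastoma gene, did not pass the test. Their levels were 27.3, 75.4 and 49.6 CPM for dap, 165, 115 and 71.8 CPM for fzr and 16.1, 42.2 and 24 CPM for Rbf in metamorphed cells, against 50.2, 75.3 and 92.4 CPM, 71, 122 and 110 CPM, and 49, 49 and 48.1 CPM in control discs. Thor, the translation inhibitor that Tor kinase switches off, stood out within that list at 1054, 718 and 1406 CPM, against 59.2, 114 and 68.1 CPM (3.71 ± 0.33, adjusted p = 4.82e-05), and Tob, an antiproliferative gene, rose by 2.18 log2 units (adjusted p = 0.00267).

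**Figure D2:**
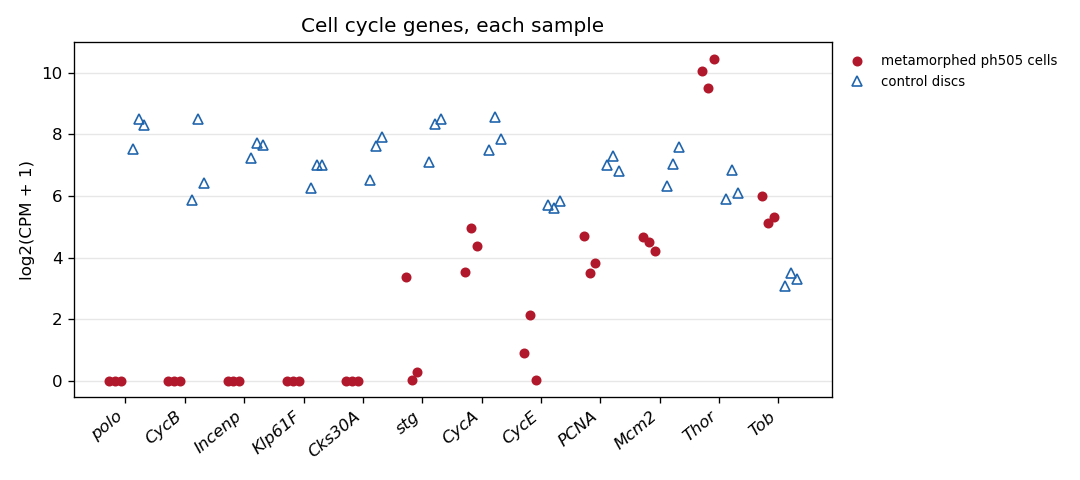
Level of 12 cell cycle genes in each sample, as log2(CPM + 1) on the vertical axis, from mitosis on the left to replication and the exit genes Thor and Tob on the right; filled circles are the 3 metamorphed samples and open triangles the 3 control discs. The mitotic genes polo, CycB, Incenp and Klp61F lie at 0 in the metamorphed samples, PCNA, Mcm2 and CycA lie below the control discs but above 0, and Thor and Tob lie above all control discs.

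Genes of larval eye formation were mostly low. Among the 11 tested genes of retinal determination, the transcription factors that make a disc an eye, 7 fell and 2 rose. Eya, a cofactor at the core of that network, had 10, 17.7 and 8.11 CPM in metamorphed cells, against 557, 350 and 426 CPM in control discs (eya, -5.15 ± 0.33, adjusted p = 9.59e-06). Its partner so had 11.7, 12.3 and 5.53 CPM, against 58.4, 61.6 and 59.8 CPM. The Pax6 genes ey and toy fell by 5.51 and 3.93 log2 units (adjusted p = 0.000471 and 5.35e-05), ey being at 0 in samples 1 and 3 and at 5.77 CPM in sample 2. The Pax gene toe went the other way, with 312, 288 and 314 CPM, against 34.5, 79.8 and 53 CPM (2.51 ± 0.31, adjusted p = 0.00026). The control discs thus held their labelled tissue's defining genes at 58.4 CPM or more for eya, so, ey and toy. Of 26 genes that specify photoreceptors 17 fell and 9 did not pass, with a median log2 fold change of -2.08. Ato, the proneural gene that founds each photoreceptor cluster, had no read in the metamorphed samples, against 10.6, 10.8 and 19.6 CPM for ato in control discs, at least 283-fold lower. Scabrous, a secreted protein that spaces the clusters, was also at 0 in all 3, with sca at 93.3, 198 and 174 CPM in control discs and at least 3213-fold lower. The zinc-finger gene gl and the receptor kinase gene sev, both needed for photoreceptor fate, fell by 5.21 and 4.67 log2 units (adjusted p = 0.000223 and 0.00145), and what remained of each was highest in metamorphed sample 2, at 11.9 CPM of gl and 6.43 CPM of sev.

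Most genes of the signals that pattern a growing disc fell. In the Notch and EGFR group 18 of 23 genes fell and 1 rose, with a median of -3.19, the lowest of the groups described here. Kek1, a feedback inhibitor of the EGF receptor, had 4.07, 5.91 and 5.37 CPM in metamorphed cells, against 561, 374 and 472 CPM in control discs (kek1, -6.26 ± 0.29, adjusted p = 2.22e-06). The Notch target E(spl)m7-HLH had no read in any metamorphed sample, against 73.7, 61.5 and 78.8 CPM, at least 1478-fold lower. N itself, the receptor, was reduced rather than lost, with 85.7, 104 and 77.6 CPM, against 329, 346 and 350 CPM (-1.94 ± 0.21, adjusted p = 0.000155). Of 21 genes of Wnt, Hedgehog and Dpp signalling 13 fell and 2 rose. The falling number was 9 without control disc 1 and 10 without control disc 2 or 3 or with limma-voom. The ligand gene hh had 0, 0 and 4.19 CPM, against 35.3, 37.3 and 51.3 CPM, and the Wnt-inactivating enzyme gene Notum had none against 20, 38.5 and 16.9 CPM. Gbb, a BMP ligand of adult fat and muscle among other tissues, rose by 1.38 log2 units (gbb, 596, 686 and 727 CPM, against 215, 244 and 323 CPM). Axon guidance genes fell in 20 of 26 cases and 1 rose. The falling number was 15 with the trend in transcript length removed and 17 without control disc 2 or 3. The receptor genes robo2 and unc-5 and the ligand gene Sema1a had log2 fold changes of -4.34, -5.38 and -4.84 (adjusted p = 0.000224, 5.76e-05 and 0.00019), and robo3 was at 0 in all 3 metamorphed samples, at least 302-fold lower.

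Of 31 genes of neurons and synapses 11 fell, 2 rose and 18 did not pass. The falling number was 5 without control disc 1 and 7 without control disc 3 or with limma-voom. With the trend in transcript length removed 8 fell and 6 rose, and 1 rose without control disc 3 and none with limma-voom. Elav, the RNA-binding protein used to mark neurons, had 19.9, 37.5 and 26.2 CPM in metamorphed cells, against 130, 76.8 and 162 CPM in control discs (elav, -2.08 ± 0.36, adjusted p = 0.00183). The synaptic genes brp and unc-13 fell by 2.73 and 2.96 log2 units (adjusted p = 0.000163 and 3.53e-05), while nSyb, the synaptic vesicle fusion gene, did not pass, with 9.76, 37.7 and 7.32 CPM, against 61.9, 22.4 and 48.5 CPM. In glia 3 of 18 genes were higher (16.7%) and 4 lower (22.2%), against 23.1% and 18.1% over all genes. Without control disc 1 or metamorphed sample 1, 2 were lower. With the trend in transcript length removed 6 were higher and 2 lower. Gs2, a glutamine synthetase of glia, had one of the largest rises of all genes (3394, 3050 and 3456 CPM, against 3.53, 2.87 and 0.430 CPM, 10.14 ± 0.41, adjusted p = 9.33e-07). Repo, the transcription factor that defines most glia, was low, with 0.910, 0.168 and 9.02 CPM of repo, against 12.5, 10.9 and 12.2 CPM, a fall whose call was lost without any one of the samples other than metamorphed sample 3 (adjusted p = 0.104 to 0.142). The glial genes moody and alrm did not pass the test.

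Genes of adult photoreceptors rose unevenly. Of 30 phototransduction genes 16 rose and 3 fell, with a median log2 fold change of 2.82. Their summed level was 1953, 3570 and 1095 CPM in metamorphed cells, against 619, 554 and 587 CPM in control discs. Sample 2 was highest and sample 3 lowest. NinaE, the main rhodopsin, had 698, 1245 and 213 CPM, against 0, 0 and 1.05 CPM (ninaE, 8.81 ± 0.64, adjusted p = 1.74e-05). Arr1, an arrestin that switches rhodopsin off, had 138, 320 and 80.5 CPM, against 5.10, 0 and 0.574 CPM (6.17 ± 0.75, adjusted p = 0.000242). The light-gated channel gene trp had 55.4, 171 and 12.8 CPM and no read in control discs, at least 169-fold higher. The phospholipase C gene of the cascade went the other way, and norpA had 53.2, 67 and 40.7 CPM, against 96, 129 and 118 CPM (-1.10, adjusted p = 0.0117). That call was lost with the trend in transcript length removed (adjusted p = 0.131). With limma-voom 7 of the 30 rose and 2 fell, and ninaE and trp were no longer called (adjusted p = 0.0595 and 0.229). Of 18 eye pigment genes 5 rose (27.8%) and 1 fell (5.56%), against 23.1% and 18.1% over all genes, with a median log2 fold change of 0.33. With CPM of total reads or quantile normalization 2 rose and 3 fell, and without metamorphed sample 2 there were 3 in each direction. The rising number was 2 without control disc 3 and 3 without control disc 2, without metamorphed sample 3 or with limma-voom. The pigment transporter gene w fell by 1.49 log2 units (46.2, 70.9 and 32.7 CPM, against 129, 168 and 113 CPM) and Hn, the phenylalanine hydroxylase that makes tyrosine, rose by 4.32 log2 units (adjusted p = 0.00025).

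Cuticle genes were mixed, and those of tanning mostly rose. Of 18 genes of cuticle tanning and melanin 12 rose (9 with limma-voom) and 1 fell, with a median log2 fold change of 3.05. Ebony, the enzyme that makes the tan cuticle precursor, had 649, 1271 and 1056 CPM in metamorphed cells, against 0, 0 and 1.53 CPM in control discs (e, 9.45 ± 0.46, adjusted p = 2.4e-06). Pu, which starts the synthesis of the cofactor for dopamine production, had 579, 844 and 568 CPM, against 16.1, 12.2 and 31.5 CPM (5.07 ± 0.35, adjusted p = 1.46e-05). Tyrosine hydroxylase had 2240, 4171 and 3140 CPM, against 120, 11.5 and 1070 CPM of ple, a log2 fold change of 4.71 over control discs that differ widely, and the call was lost without control disc 1 or metamorphed sample 2 (adjusted p = 0.0738 and 0.0561). Ddc, the next enzyme, did not pass (89.1, 193 and 149 CPM, against 152, 4.66 and 58.5 CPM). Of 92 cuticle proteins of the Rebers-Riddiford family 41 passed the filter and were tested. Among these 13 rose (31.7%) and 6 fell (14.6%), near the shares over all genes. Of the 41, 20 had no read in 1 of the groups and passed the filter only through the other group. The direction of these counts is therefore partly set by the filter. The rising number was 8 without control disc 1 or without control disc 2. The falling number was 10 without control disc 1, with CPM of total reads or with the trend in transcript length removed, and limma-voom found 3 higher and 9 lower. Acp1, a protein of adult cuticle, had 362, 102 and 184 CPM and no read in control discs, at least 459-fold higher, and Pcp, a pupal cuticle protein, fell by 3.48 log2 units (adjusted p = 0.00371). Of 35 chitin genes 12 rose and 10 fell. The imaginal disc growth factors, secreted chitinase relatives, led the rises. Idgf4 had 4654, 3534 and 3522 CPM, against 47.4, 203 and 153 CPM, and Idgf2, Idgf3 and Idgf6 rose by 6.28, 7.0 and 4.66 log2 units. The chitin synthase gene kkv fell, with 26.8, 56.7 and 37 CPM, against 420, 630 and 462 CPM (-3.66 ± 0.31, adjusted p = 3.78e-05).

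Odorant binding proteins are small secreted carriers best known from the adult sense organs. Of 53 such genes 25 passed the filter and were tested. Of these 18 rose (13 with limma-voom) and the other 7 did not pass the test. A gene silent in control discs passed the filter only through its level in metamorphed cells, and 8 of the 25 had no read in 1 of the groups. The direction of this count is therefore partly set by the filter. Obp99b had 1107, 929 and 1115 CPM in metamorphed cells, against 1.18, 6.39 and 0.622 CPM in control discs (8.46 ± 0.51, adjusted p = 7.51e-06), and Obp19d, Obp56d and Obp99c rose by 8.19, 7.86 and 6.71 log2 units. These carriers are not confined to the antenna. Os-C and lush, which in the fly are tied to olfactory sensilla, were both low. Os-C did not pass (0, 8.38 and 1.00 CPM, against 0, 0.216 and 0.526 CPM), while lush rose, with 3.05, 1.47 and 3.23 CPM, against no read in control discs (adjusted p = 0.0099).

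Of 12 circadian clock genes 8 rose and 1 fell, with a median log2 fold change of 2.67, and limma-voom called 5 higher and 1 lower. The core clock gene tim had 152, 229 and 172 CPM in metamorphed cells, against 0.784, 8.49 and 0.383 CPM in control discs (6.0 ± 0.69, adjusted p = 0.000178). Clk, its activator, had 85.5, 73.2 and 62.5 CPM, against 6.27, 2.84 and 1.96 CPM (4.09 ± 0.47, adjusted p = 0.00018). The light receptor gene cry rose by 5.92 log2 units (183, 127 and 63.6 CPM, against 1.96, 1.33 and 0 CPM). The hour at which each tissue was collected was not given in the sources used here. The partner of tim, per, did not pass, with 10.3, 19.7 and 2.81 CPM, against 4.70, 4.23 and 1.63 CPM.

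Ecdysone response genes gave no single direction. Of 31 nuclear receptor and cascade genes 8 rose (25.8%) and 7 fell (22.6%), near the shares over all genes. Without control disc 1, 6 rose and 3 fell, and without control disc 3, 5 rose and 2 fell. Eip93F, a transcription factor of the late pupal and adult response, had 228, 237 and 231 CPM in metamorphed cells, against 31.4, 7.32 and 41.2 CPM in control discs (3.37 ± 0.53, adjusted p = 0.00104). The 3 metamorphed samples were almost equal, while control disc 2 was well below the other control discs. The early gene Eip74EF rose by 2.23 log2 units (52.9, 92.9 and 89.9 CPM, against 14.1, 18.3 and 14.1 CPM) and gce, a juvenile hormone receptor, by 3.26 log2 units (adjusted p = 0.00171). EcR, the ecdysone receptor, had 52.3, 59.1 and 73.6 CPM, against 150, 223 and 127 CPM, a fall of 1.39 log2 units (adjusted p = 0.0041) that was not called with the trend in transcript length removed (adjusted p = 0.0639). Its partner usp did not pass (114, 109 and 123 CPM, against 74.1, 91.3 and 71.1 CPM). Cyp18a1, the enzyme that breaks ecdysone down, fell by 3.37 log2 units (adjusted p = 0.00956). The let-7 host transcript was low in both groups and did not pass, with 4.11, 1.98 and 1.97 CPM, against 6.66, 0.556 and 4.07 CPM of lncRNA:let7C, and this method does not count the mature microRNA. Among genes discussed as let-7 targets, chinmo did not pass (199, 211 and 267 CPM, against 215, 513 and 210 CPM), but ab, also called abrupt, fell to 5.0, 16.2 and 13.1 CPM in metamorphed cells, against 279, 511 and 430 CPM in control discs (-5.12 ± 0.42, adjusted p = 3.39e-05). Wech, another, fell by 3.89 log2 units (wech, adjusted p = 6.69e-05).

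**Figure D3:**
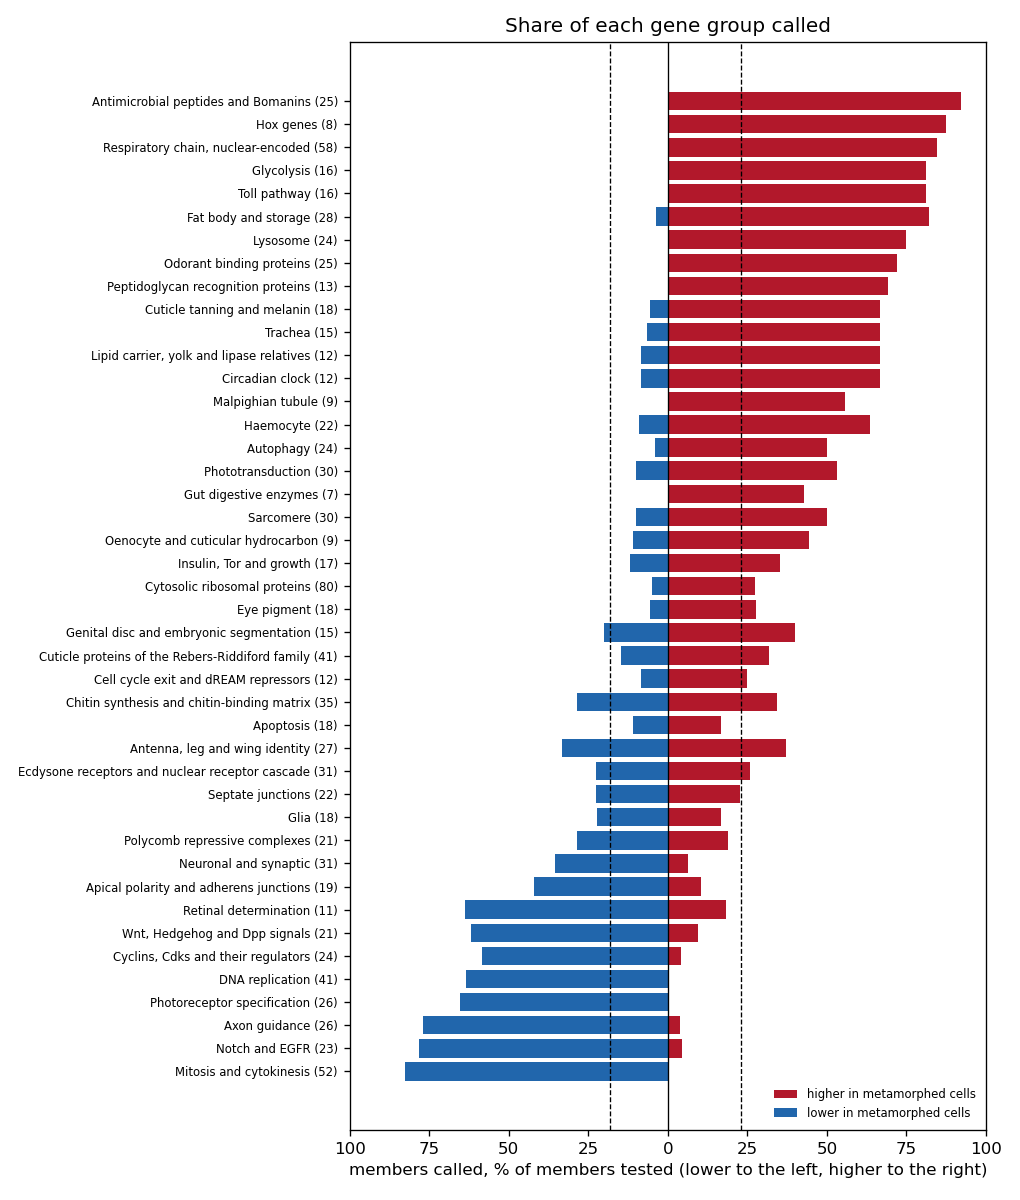
Share of the tested members of each gene group that rose (right of 0) and fell (left of 0) in metamorphed cells against control discs, in percent of members tested, with the number tested after each group's name; the dashed lines mark the shares over all 9765 genes, 23.1% and 18.1%. Cell division, photoreceptor specification and patterning signals lie to the left, and immune, fat body, glycolysis, respiration and Hox groups lie to the right.

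The fat body is the fly's storage and secretory organ. Of 28 of its genes 23 rose (16 with limma-voom) and 1 fell, with a median log2 fold change of 3.16. The larval serum protein gene Lsp2, made for storage before metamorphosis, had 256, 210 and 310 CPM in metamorphed cells, against 0.392, 5.38 and 0 CPM in control discs (6.95 ± 0.66, adjusted p = 6.57e-05). Fbp1, the receptor through which the fat body takes such proteins back, had 476, 365 and 493 CPM and no read in control discs, at least 944-fold higher. Both genes were even over the 3 metamorphed samples. The lipoprotein gene apolpp had 243, 120 and 119 CPM, against 7.45, 39.1 and 13.5 CPM (3.16 ± 0.55, adjusted p = 0.00182). Yolk proteins, made in adult female fat body and ovary, were uneven instead. Yp3 had 1754, 197 and 449 CPM, against 25.1, 59.8 and 28.6 CPM (3.90 ± 0.69, adjusted p = 0.00191), and Yp1 had 1304, 149 and 302 CPM, against 27.4, 72.7 and 25.2 CPM. Metamorphed sample 1 was far above both other metamorphed samples in each, the Yp1 call was lost with limma-voom (adjusted p = 0.0506), and the summed level of the 12 genes for lipid carriers, yolk and related lipases was 9004, 1404 and 2620 CPM, against 370, 1198 and 416 CPM. In that group 8 rose and 1 fell, and 7 rose without metamorphed sample 1. Oenocytes are cells under the cuticle that make its hydrocarbons. Of 9 tested genes of oenocytes and cuticular hydrocarbons 4 rose and 1 fell (2 fell with CPM of total reads), with a median log2 fold change of 1.78 and summed levels of 2347, 2392 and 1961 CPM in metamorphed cells, against 512, 742 and 567 CPM in control discs. The desaturase gene Desat1, the largest part of that sum, rose by 2.01 log2 units (1862, 1615 and 1346 CPM, against 296, 509 and 406 CPM). The member that fell was Cyp4g1, which carries out the last step of hydrocarbon synthesis in oenocytes, with no read in metamorphed cells, against 10.2, 15.6 and 12.3 CPM, at least 263-fold lower. The share of fat body or other surrounding tissue in each sample was not tested.

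Immune genes rose together. Of 25 antimicrobial peptide and Bomanin genes 23 rose and 2 did not pass, with a median log2 fold change of 3.70 (3.72 with members lacking reads in control discs set at their bound) and summed levels of 1518, 1553 and 1273 CPM in metamorphed cells, against 27.1, 26 and 67.3 CPM in control discs. With limma-voom 14 of the 25 were called. These 25 were the ones that passed the filter, of 32 such genes. Their mean log2(CPM + 1) was 0.80, 0.70 and 1.14 in control discs. A gene under 1 CPM in the control discs passed only through its level in metamorphed cells. The direction of this count is therefore partly set by the filter. Bomanins, the short peptides that the Toll pathway induces, led the group. BomT3 had 245, 305 and 237 CPM, against 0, 0.710 and 0.861 CPM (7.47 ± 0.42, adjusted p = 5.22e-06), BomBc2 had 341, 288 and 347 CPM, against 4.70, 0.710 and 0.813 CPM, and BomS3 was at 80.1 to 80.2 CPM in all 3 metamorphed samples. Classical peptides were less even, as AttA had 96.2, 26 and 17.9 CPM, against 0.392, 0.494 and 2.15 CPM (4.29 ± 0.71, adjusted p = 0.0013), a call that limma-voom did not make (adjusted p = 0.133). Of 16 Toll pathway genes 13 rose and 3 did not pass. Spätzle processing enzyme, which cuts the Toll ligand, had 1129, 1119 and 1073 CPM, against 0.392, 0.154 and 0 CPM of SPE (9.88 ± 0.31, adjusted p = 3.74e-07). The serpin gene nec and the protease gene psh, an inhibitor and an activator upstream of the same step, rose by 7.22 and 6.13 log2 units, the inhibitor cact by 2.13 and the ligand gene spz by 3.39. The receptor gene Tl itself did not pass (63.7, 80.1 and 111 CPM, against 65.9, 72.1 and 79.5 CPM). Of 13 peptidoglycan recognition proteins 9 rose (5 with limma-voom), with PGRP-LC, the sensor of the Imd pathway, at 739, 632 and 657 CPM, against 35.7, 35.7 and 87.2 CPM (3.78 ± 0.34, adjusted p = 5.53e-05), and PGRP-SA, which senses for Toll, not passing (12, 12.4 and 17.5 CPM, against 12.2, 19.7 and 58.8 CPM).

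**Figure D4:**
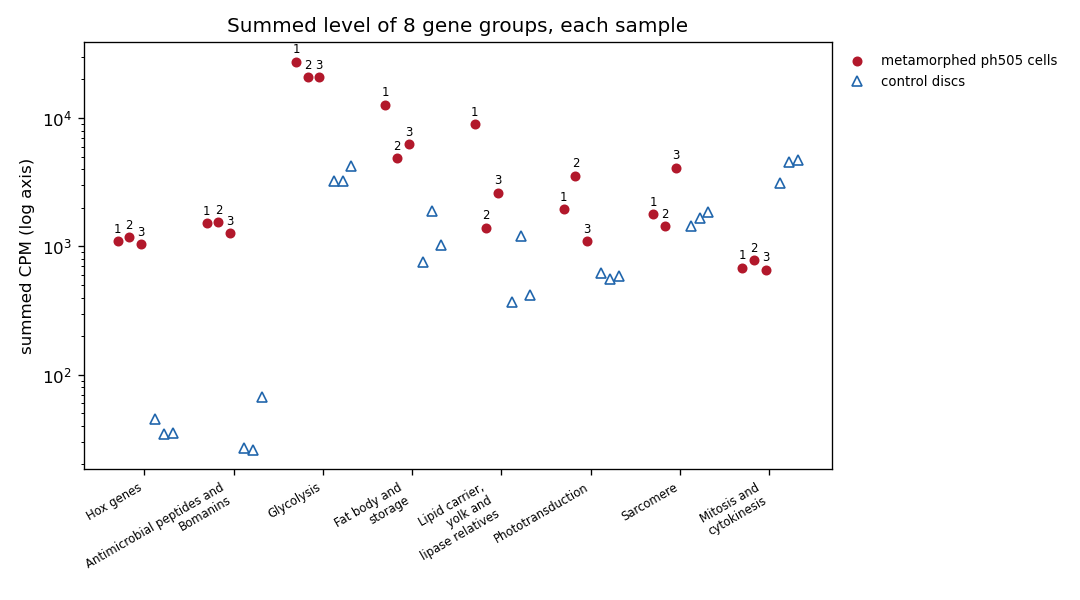
Summed level of 8 gene groups in each sample, in CPM on a logarithmic vertical axis, with filled circles for the 3 metamorphed samples (numbered 1 to 3) and open triangles for the 3 control discs. In summed level the Hox and immune groups differ little over the metamorphed samples. Yolk and lipid carrier genes are led by sample 1 at 9004 CPM, phototransduction by sample 2 at 3570 CPM and sarcomere by sample 3 at 4104 CPM.

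Genes of blood cells, trachea, muscle, gut and tubule were counted as markers of other adult tissues. Of 22 blood cell genes 14 rose and 2 fell, and 10 rose with limma-voom or without control disc 2 or metamorphed sample 2. The phagocytosis gene NimB2 had 73.8, 210 and 207 CPM in metamorphed cells, against 17.6, 5.31 and 4.59 CPM in control discs, and srp, a GATA factor of blood and fat body, had 24.7, 26.4 and 24.2 CPM, against 1.57, 5.62 and 5.79 CPM (2.42 ± 0.53, adjusted p = 0.00624). Hml, the usual marker of plasmatocytes, was at 28.9, 47 and 13.4 CPM, against 7.06, 2.04 and 5.98 CPM, with a call lost without control disc 2 or metamorphed sample 2 (adjusted p = 0.0534 and 0.0541). Of 15 tracheal genes 10 rose and 1 fell. Trh, the selector of tracheal fate, had 24.2, 36 and 14 CPM, against 0, 0.216 and 1.10 CPM (trh, 4.14 ± 0.57, adjusted p = 0.000486), and vvl and rib, used with it in tracheal branching, rose by 3.58 and 4.85 log2 units. Gasp, a chitin-binding protein of tracheal cuticle, was among the most abundant transcripts per kilobase (6192, 5876 and 9191 CPM, against 910, 1180 and 2813 CPM, 2.26 ± 0.45, adjusted p = 0.00382). In the Malpighian tubule group 5 of 9 rose (3 with limma-voom), namely the water channel genes Prip (1428, 591 and 704 CPM, against 1.18, 60.9 and 1.24 CPM) and Drip, the proton pump subunit genes Vha55 and Vha16-1, and the chloride channel gene ClC-a. Uro, the urate oxidase gene of the tubule, and CapaR, a peptide hormone receptor gene, had no read in any metamorphed sample.

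The summed level of muscle genes was highest in metamorphed sample 3. Of 30 sarcomere genes 15 rose and 3 fell (1 fell without control disc 3 or metamorphed sample 1 or 2), with a median log2 fold change of 2.35, and summed levels of 1787, 1434 and 4104 CPM in metamorphed cells, against 1446, 1658 and 1863 CPM in control discs. In the sum, sample 3 lay above every control disc, while samples 1 and 2 did not. Mhc, the muscle myosin, had 88, 16.7 and 83.2 CPM, against 3.53, 5.19 and 1.10 CPM (3.71 ± 0.72, adjusted p = 0.00324). Tm2, a muscle tropomyosin, had 22.3, 21.3 and 244 CPM, against 1.18, 4.88 and 0.861 CPM, and Zasp66, a Z-disc protein, had 21.4, 50.9 and 554 CPM, against 1.18, 5.16 and 0.383 CPM. Without sample 3 there were 14 rising genes of 28 tested. Limma-voom called 3 of the 30, each lower in metamorphed cells, and its adjusted p was 0.153 for Mhc, 0.316 for Tm2 and 0.355 for Zasp66. Of 20 digestive enzyme genes 7 passed the filter, of which 4 did not pass the test and 3 rose. They were Mal-B1, a maltase, with 109, 384 and 572 CPM, against 0, 0.124 and 0 CPM, and the amylase genes Amy-p and Amy-d, which are near-identical copies and may share reads. The gut trypsins alphaTry and betaTry stayed at 5.03 CPM or less in every metamorphed sample. The calls of Mal-B1, Amy-p and Amy-d were lost with limma-voom (adjusted p = 0.0718, 0.113 and 0.0562).

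Metabolic genes rose in 2 large groups. Of 16 glycolysis genes 13 rose and 3 did not pass, with a median log2 fold change of 2.86. Triose phosphate isomerase had 2747, 2019 and 2169 CPM in metamorphed cells, against 183, 182 and 234 CPM in control discs (Tpi, 3.52 ± 0.24, adjusted p = 1.26e-05), and Pgi and Gapdh1 rose by 2.94 and 3.10 log2 units. Hex-A, the first enzyme of the pathway, did not pass (391, 346 and 200 CPM, against 279, 140 and 222 CPM). Of 58 nuclear genes of the respiratory chain 49 rose and 9 did not pass, with a median of 1.60. ND-39, a complex I subunit, had 716, 759 and 856 CPM, against 176, 140 and 150 CPM (2.32 ± 0.21, adjusted p = 5.73e-05), and ATPsynD and ATPsynF, of the ATP synthase, rose by 2.27 and 2.26. Ribosomal proteins did not follow them. Of 80 cytosolic ribosomal protein genes 22 rose and 4 fell with a median of 0.47, but with CPM of total reads 10 fell, the other 70 did not pass and the median was -0.04, so no direction is given for them. Between 6 genes (without metamorphed sample 1) and 28 genes (without control disc 2) rose when 1 sample was left out, with 8 without control disc 3, 9 without control disc 1 and 12 without metamorphed sample 3. Of 17 genes of insulin and Tor signalling and growth 6 rose and 2 fell, with a median log2 fold change of 0.22. The number that fell was 4 without metamorphed sample 2 and 1 without any other sample or with limma-voom. Sesn, a stress-induced inhibitor of Tor kinase, had 521, 502 and 469 CPM, against 45.5, 41.9 and 23.1 CPM (3.77 ± 0.29, adjusted p = 2.08e-05), and Myc fell by 1.5 log2 units (116, 94.2 and 87.5 CPM, against 188, 389 and 302 CPM).

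Lysosome genes rose in 18 of 24 cases and 6 did not pass, with a median log2 fold change of 1.86. The cathepsin genes cathD and CtsB had 1084, 877 and 947 CPM and 1569, 1685 and 1538 CPM in metamorphed cells, against 248, 226 and 243 CPM and 294, 267 and 391 CPM in control discs. VhaSFD and Vha100-2, of the proton pump that acidifies lysosomes, rose by 2.98 and 2.72 log2 units. Of 24 autophagy genes 12 rose and 1 fell, but 4 rose and 2 fell with CPM of total reads. Atg1 and Atg8a kept their call under every setting tried. Atg1, the kinase that starts autophagy, had 318, 334 and 329 CPM, against 55.3, 52.3 and 58.4 CPM (2.54 ± 0.21, adjusted p = 3.04e-05), and Atg8a, the membrane mark of autophagosomes, had 2608, 2337 and 3742 CPM, against 476, 705 and 1103 CPM (1.98 ± 0.36, adjusted p = 0.00214). Apoptosis genes gave 3 higher (16.7%) and 2 lower (11.1%) of 18, below the 23.1% and 18.1% over all genes. Without control disc 2, control disc 3 or metamorphed sample 3, 1 was lower. The initiator caspase gene Dronc rose by 2.36 log2 units (334, 395 and 626 CPM, against 77.2, 62.3 and 123 CPM) and the effector caspase gene Dcp-1 fell by 3.91 log2 units (2.96, 0.0561 and 5.27 CPM, against 39.2, 49.4 and 42.7 CPM). Buffy, a survival factor of the Bcl-2 family, had 84.1, 34.9 and 45.6 CPM, against 0, 0.556 and 0.143 CPM (5.43 ± 0.54, adjusted p = 8e-05). The death inducer hid did not pass the test.

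Of 19 genes of apical polarity and adherens junctions 8 fell and 2 rose, with 5 falling without control disc 3 and 13 with CPM of total reads. The E-cadherin gene shg had 50.3, 46.3 and 59.6 CPM in metamorphed cells, against 315, 280 and 369 CPM in control discs (-2.60 ± 0.23, adjusted p = 4.72e-05). The apical determinant genes crb and sdt did not pass, with 230, 182 and 152 CPM of crb, against 210, 189 and 166 CPM, and 153, 250 and 208 CPM of sdt, against 121, 139 and 178 CPM. Septate junctions, the barrier between epithelial cells, gave 5 higher and 5 lower of 22, each 22.7% and near the shares over all genes. There were 2 higher and 10 lower with quantile normalization, 2 higher and 8 lower with CPM of total reads, and 6 higher and 3 lower without control disc 3. Lac and nrv1, both of that junction, rose by 1.47 and 1.88 log2 units (adjusted p = 0.0014 and 0.000153) and Nrt fell by 2.44 (adjusted p = 0.000245). The matrix protease gene Mmp2 had 16.1, 13 and 10.8 CPM, against 312, 184 and 298 CPM (-4.19 ± 0.31, adjusted p = 1.87e-05), and its inhibitor Timp rose to 1046, 1002 and 1196 CPM, against 71, 29.6 and 193 CPM (3.84 ± 0.55, adjusted p = 0.000592).

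The largest single changes included genes of little known function. CG6409 had 7447, 6528 and 6659 CPM in metamorphed cells, against 1.96, 0.216 and 0 CPM in control discs (12.13 ± 0.39, adjusted p = 3.74e-07). CG8785 followed, with 3714, 3991 and 3340 CPM, against 0, 0.0309 and 0.765 CPM (11.55 ± 0.30, adjusted p = 1.86e-07), and the P450 gene Cyp4p1 had 698, 845 and 854 CPM and no read in control discs, at least 1698-fold higher. In the other direction the long non-coding RNA lncRNA:CR33938 had no read in any metamorphed sample, against 706, 1081 and 863 CPM, at least 18290-fold lower, and CG34377 was at least 6233-fold lower. Per kilobase of exon Msr-110 stood among the highest of all genes in metamorphed cells, at 12920 CPM per kilobase on average and 44390, 38520 and 29540 CPM per sample, against 185, 791 and 1007 CPM per sample in control discs (6.12 ± 0.60, adjusted p = 7.97e-05). CG8483, with 7446, 13350 and 22900 CPM, against 42.7, 51 and 190 CPM, came next among the genes that rose.

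The spread between the 3 metamorphed samples differed between gene groups. Over the 9765 tested genes the median SD of log2(CPM + 1) was 0.44 in metamorphed cells and 0.41 in control discs, but the ninetieth percentile was 1.27 in metamorphed cells and 0.99 in control discs. A gap of more than 2 log2 units between the highest and the lowest sample occurred in 1438 genes in metamorphed cells and in 826 genes in control discs. Among genes averaging over 10 CPM in the group these were 364 of 6582 genes (5.53%) in metamorphed cells and 245 of 6693 genes (3.66%) in control discs. In 109, 161 and 127 genes a single metamorphed sample (1, 2 and 3) stood more than 2 log2 units above both others, and in 220, 91 and 147 genes it stood as far below both. Sample 1 thus had the fewest genes high in it alone and the most genes low in it alone. The control discs were sequenced less deeply, disc 1 least of all, and the part of counting error in these counts was not tested.

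**Figure D5:**
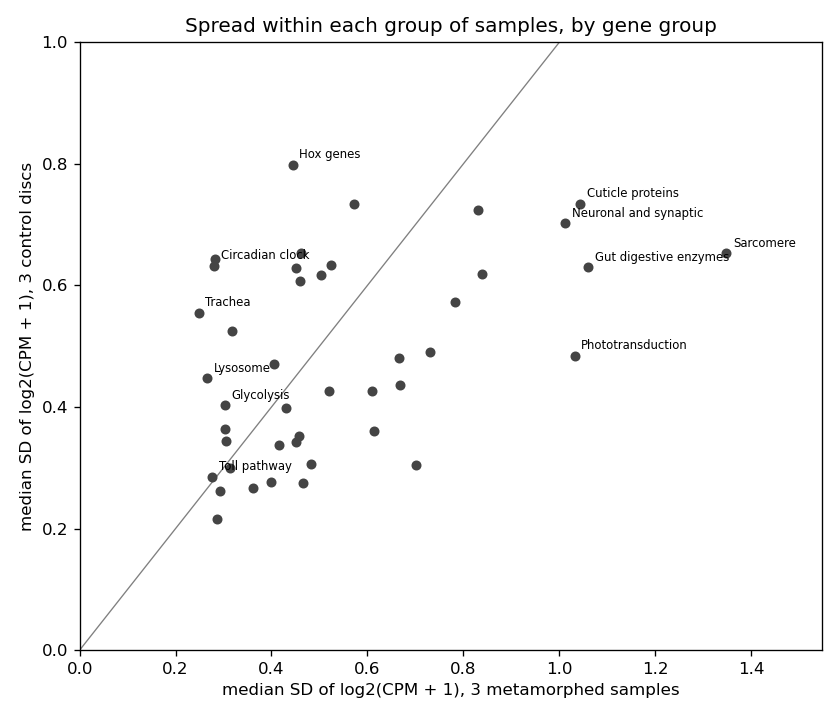
Median SD of log2(CPM + 1) over the 3 metamorphed samples (horizontal axis) and over the 3 control discs (vertical axis) for each gene group with at least 7 tested members; each point is a group and the line marks equal spread. Sarcomere, phototransduction, gut enzyme and cuticle protein groups lie to the right of the line, at 1.03 or more on the horizontal axis, while trachea, Toll, lysosome and clock groups lie at 0.28 or less.

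Gene groups differed in this measure. The members of the sarcomere group had a median SD of 1.35 in metamorphed cells and 0.65 in control discs, phototransduction 1.03 and 0.48, and neuronal genes 1.01 and 0.70. The glycolysis group had 0.30 in metamorphed cells and 0.40 in control discs, the Toll pathway 0.28 and 0.28, and lysosome genes 0.27 and 0.45. The samples that led were not the same from group to group. In summed level sample 1 was 6.41-fold above the lowest for yolk and lipid carriers. Sample 2 was 3.26-fold above the lowest for phototransduction and sample 3 2.86-fold for sarcomere genes. For digestive enzymes sample 3 was 4.13-fold above the lowest, but Mal-B1 made up most of that sum. The mean log2(CPM + 1) of the tested digestive enzymes was highest in sample 2, at 2.25, 4.05 and 2.65. The Hox sums differed by no more than 1.14-fold. The median SD of Hox members was 0.44, as over all tested genes, and that of antimicrobial peptides and Bomanins was 0.50. Single genes were wider still. CG6055 had 58.4, 467 and 7665 CPM in metamorphed cells, against 1.18, 0.154 and 0.239 CPM in control discs, and Hsp68, a heat-inducible chaperone, had 0.696, 191 and 46 CPM, against 79.2, 8.74 and 292 CPM, without passing the test. CG34220 and CG42821 were high in sample 1 only, at 92.8 and 76.5 CPM, and CG14569 in sample 3 only, at 235 CPM.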

How the data were processed

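RNA was extracted from metamorphed ph505 cells (3 samples) and control discs (3 samples), amplified from poly(A) RNA with SMARTSeq2 and made into Nextera XT libraries. Per the submitters' processing notes reads were aligned with TopHat2 2.0.12 and Bowtie2 2.2.3 to dm6, and edgeR 3.16.5 in R 3.3.1 was used. The counting program and annotation were not given in the sources used here. The authors deposited 1 table of log2 CPM per gene, scaled by normalization factors and with a prior count, from which whole reads were recovered and taken back to CPM. SMARTSeq2 does not mark strand, so reads of overlapping genes cannot be told apart, which touches 50 of the 177 genes named. Gene positions are from the Ensembl BDGP6 annotation.

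Genes with at least 1 CPM in at least 2 of the 6 samples were tested with limma 3.58.1 in R 4.3.3 (mean-variance trend) on log2(CPM + 1), which understates the change of low genes, with Benjamini-Hochberg adjustment and a threshold of 0.05. With 3 samples against 3 an exact permutation test of a single value cannot give a two-sided p under 0.1. Scripts were tested on simulated data. Gene lists are described by counts and medians, without a test. Lists, members and tests were chosen with earlier results of these data known. Genes were named by rule, as the 10 highest and 10 lowest called genes without overlap, up to 4 called members at each end and the first 3 members of each list, the 10 highest per kilobase of exon, the 10 with the largest spread, and genes the study discusses. Not all of them are described. A gene without a read in one group is given as a bound against 3 reads per library. Such a bound holds for reads in these amplified libraries and not for RNA molecules in the cells, since capture before amplification was not measured. Alternatives were other pseudocounts, filters, scalings, thresholds, limma-voom, all 12 samples, a replicate block and leaving out each sample.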

Additional observations from a re-analysis of the deposited data

How the results depend on the processing

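Of 150 called genes named in the text, between 144 and 148 kept their call with any 1 sample left out, 149 with CPM of total reads, 134 with limma-voom and 150 with the replicate block. With the replicate block 3852 genes were called, 2178 higher and 1674 lower. Same-numbered samples did not deviate together (correlations of deviations -0.057, -0.037 and 0.061), so the numbers were not read as pairs. Leaving out 1 sample gave 3153 to 3647 called genes, 1874 to 2045 of them higher and 1279 to 1602 lower. At an adjusted p threshold of 0.01 there were 2481 called genes, 960 of them lower, and with CPM of total reads 2818 genes were lower. The number of genes with a range over 2 log2 units in the metamorphed samples was 2176 with a pseudocount of 0.1 CPM, 340 with a pseudocount of 5 CPM and 869 with a filter of at least 5 CPM in at least 3 samples, against 1815, 251 and 461 genes in control discs. These settings for the spread, the removal of the transcript length trend and limma-voom for the gene lists were chosen after seeing the data. A count of 3 or fewer members of a gene group in 1 direction moved by at most 2 members when 1 sample was left out. Depth limited low genes most in control disc 1, where 3 reads were 1.18 CPM. The cause of these shifts was not tested.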
